A study of Homo sapiens with 9 samples.

Results

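The genes described here are 33 genes of cholesterol and fatty acid synthesis, taken by symbol from the 26475 gene symbols of the count table: 5 regulators of the sterol regulatory element binding proteins (SREBPs), 7 enzymes of the mevalonate pathway, 11 enzymes of squalene and sterol synthesis, 3 genes of sterol transport and efflux, and 7 enzymes of fatty acid synthesis and desaturation. All 33 passed the filter on low counts, which left 16417 genes, and the lowest count of any of them in any library was 137. The cells were A375, an established human melanoma line with a mutation in BRAF, grown in 3 groups of 3 libraries, described in the series' design text as biological replicates. For 24 h they received either the vehicle, DMSO, or TP-472 at 5 µM or at 10 µM. TP-472 is a compound that blocks the bromodomains of BRD9 and BRD7, proteins that read acetylated lysines on chromatin. Every library came from this line alone, so the groups stand for 1 cell line, 1 time point and no inactive control compound. The methods describe mRNA bound to oligo-dT, the series' design text describes removal of ribosomal RNA, and which was used could not be settled.

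Cells make cholesterol from acetyl-CoA through mevalonate, isoprenoid diphosphates, squalene and lanosterol, and they make fatty acids from the same acetyl-CoA through malonyl-CoA. The transcription factors SREBP-1 and SREBP-2 drive the genes of both routes. SCAP escorts them out of the endoplasmic reticulum for cleavage when sterols are low, whereas INSIG proteins hold them back when sterols are high, and LXR receptors act on SREBF1 and on the efflux pumps when oxysterols rise.

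The libraries held 42483091 to 51298130 expected counts, and genes of ribosomal RNA took 8.79% to 10.9% of them in the DMSO group, 10.6% to 16.6% in the 5 µM group and 8.20% to 19.9% in the 10 µM group. The library 10 µM replicate 1 differed from the other 8. Transcript length and GC content together explained 10.2% of the variance of its deviation from the mean of all 9 libraries. In each other library they explained at most 1.91%. These deviations also hold any effect of treatment. Of the melanocyte lineage markers, SOX10 was at 363 to 426 CPM (read counts scaled to library size, after TMM scaling) and MITF at 23.3 to 35.9 CPM in all 9 libraries. The pigmentation genes were near absent, with PMEL at 0.968 to 2.87 CPM and TYR at 0 in every library, while AXL, a gene of dedifferentiated melanoma, was at 515 to 529 CPM in DMSO and 391 to 463 CPM with TP-472. NGFR, another such gene, was at 84.9 to 86.2 CPM in DMSO and lower in all 6 TP-472 libraries, at 33.7 to 51.7 CPM, and the part of either gene in the results was not tested. The keratinocyte, leukocyte and endothelial markers stayed between 0 and 2.12 CPM apart from KRT14, which was at 5.502 to 8.76 CPM. In bulk RNA, a lower level cannot be assigned to less RNA per cell or to fewer cells that express the gene, since these cannot be told apart.

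To ask which steps of lipid synthesis changed at each dose, every gene was tested at each dose against DMSO and between the doses with the quasi-likelihood test of edgeR, Benjamini-Hochberg adjusted over all 16417 genes, and a gene was called at an adjusted p under 0.05. At 5 µM, 11 of the 33 genes fell (33.3%, against 5.81% of all genes tested) and 0 rose (against 4.4% of all genes). At 10 µM, 18 of the 33 fell (54.5%, against 18% of all genes tested) and 6 rose (18.2%, against 16.4%). The share that rose at 10 µM was near that of all genes, and the share that fell was above it at either dose. The 33 genes were chosen with earlier results of these data known, so these shares are a description and not a test. All genes tested also include genes with low counts, which are harder to call. In the fit of genes with at least 1 CPM in 3 libraries, 987 of 13982 fell at 5 µM and 2818 at 10 µM. The median log2 fold change over the 33 genes was -0.27 at 5 µM and -0.28 at 10 µM, beside 0.0054 and 0.011 over all genes tested. Both comparisons use the same 3 DMSO libraries, so a gene with a low or high DMSO value moves in both.

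The count of 11 genes that fell at 5 µM depended on single libraries. It was 20 without 10 µM replicate 1, a library of neither group that enters through the shared fit, and 1 gene (PMVK) then rose. It was 6, 5 and 5 without DMSO replicates 1, 2 and 3, and 6, 7 and 6 without 5 µM replicates 1, 2 and 3. The count over all genes moved with it. Of all genes tested, 954 of 16417 fell at 5 µM in the fit of all libraries and 2951 of 16745 without 10 µM replicate 1, whereas 410 to 454 fell without 1 DMSO library and 482 to 503 without 1 library of 5 µM. The falls at 10 µM numbered 12 to 21 when any 1 library was left out (2127 to 4316 over all genes tested). The rises numbered 3 without DMSO replicate 2 (1645 of 16887 over all genes tested).

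**Figure D1:**
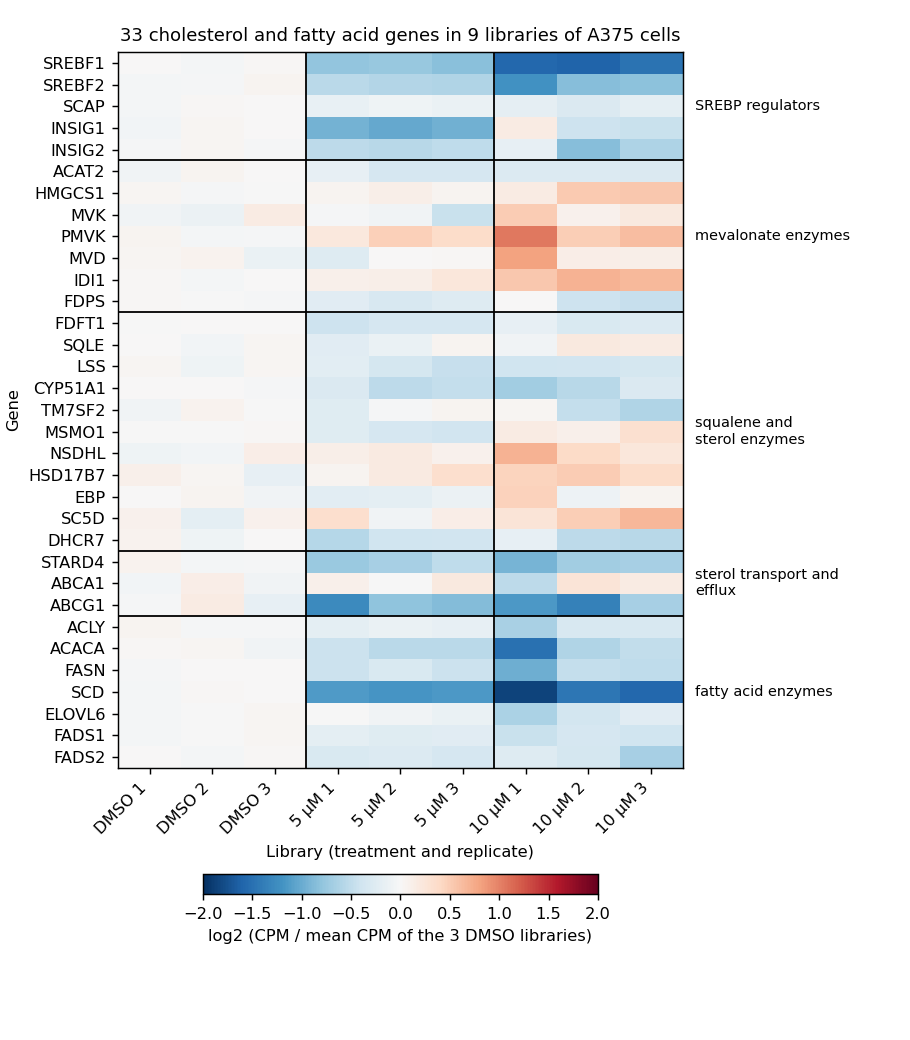
Level of each of the 33 genes (rows, grouped by role) in each of the 9 libraries (columns), as log2 of the CPM over the mean CPM of the 3 DMSO libraries; blue is lower and red is higher than DMSO. SREBF1 and SCD are blue in all 6 TP-472 libraries and darker at 10 µM, the 7 fatty acid genes are blue in all 3 libraries at 10 µM, and HMGCS1, PMVK and IDI1 are red at 10 µM.

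Calls were then counted by role. All 7 fatty acid enzymes fell at 10 µM, as did 4 of the 5 SREBP regulators and 2 of the 3 transport genes, and in none of these 3 groups did a gene rise. In the mevalonate pathway 3 genes rose (42.9%) and 1 fell (14.3%) at 10 µM, and in squalene and sterol synthesis 3 rose (27.3%) and 4 fell (36.4%). Of all genes tested, 16.4% rose and 18% fell at 10 µM, and in groups this small 1 gene moves a share far. The median log2 fold change at 10 µM was -0.51 for the regulators, 0.38 for the mevalonate enzymes, 0.10 for the squalene and sterol enzymes, -0.76 for the transport genes and -0.42 for the fatty acid enzymes. At 5 µM the same medians were -0.57, -0.07, -0.17, -0.64 and -0.30. The difference between roles was not tested.

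**Figure D2:**
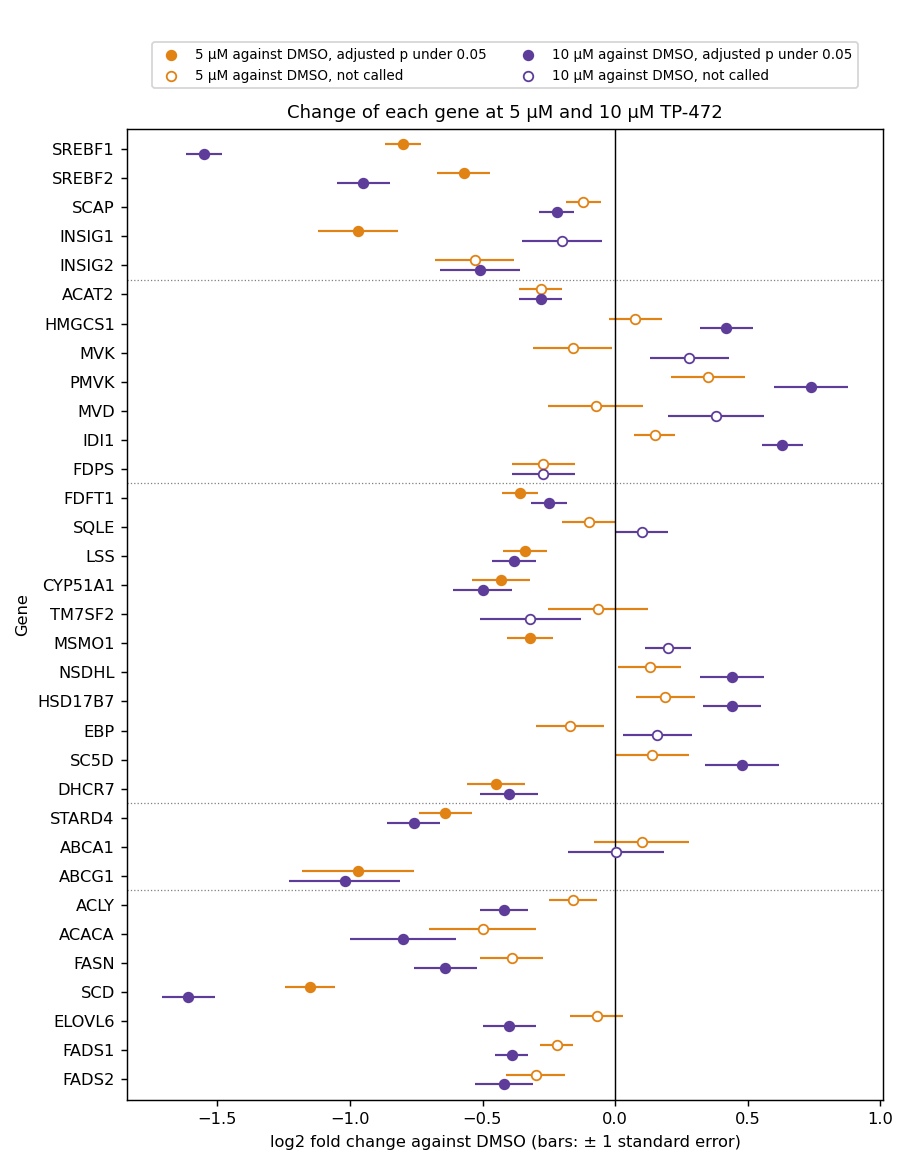
Log2 fold change of each gene against DMSO at 5 µM (orange) and 10 µM (purple), with bars of ± 1 standard error; filled points were called at an adjusted p under 0.05. At 10 µM the filled points right of 0 are HMGCS1, PMVK, IDI1, NSDHL, HSD17B7 and SC5D, and those left of 0 include all 7 fatty acid enzymes, with SCD at -1.61 and SREBF1 at -1.55.

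Over both doses, 9 genes fell at 5 µM and at 10 µM, namely SREBF1, SREBF2, FDFT1, LSS, CYP51A1, DHCR7, STARD4, ABCG1 and SCD, and 0 rose at both. A further 9 were called lower only at 10 µM, 6 were called higher only at 10 µM, 2 (INSIG1 and MSMO1) were called lower only at 5 µM, and 7 were called at neither dose. The share of all genes tested with each of these patterns was not counted, and both doses were set against the same DMSO libraries. These counts are therefore not read as particular to the 33 genes. Tested directly, 10 µM differed from 5 µM for 6 genes. SREBF1, SREBF2 and SCD were lower at 10 µM (3 of 33, 9.09%, against 5.53% of all genes tested), and INSIG1, IDI1 and MSMO1 were higher (9.09%, against 2.87%). The 6 calls depended on the libraries fitted. Without 10 µM replicate 1 the counts were 7 lower and 6 higher (2576 and 1474 of 16745 over all genes tested). With any single 5 µM library left out only 1 gene was called lower (388 to 403 over all genes tested, in place of 908). With the DMSO libraries left out of the fit 1 was called lower and 0 higher (221 and 114 of 16005 over all genes tested). With the trend in length and GC content removed, all genes tested gave 962 higher and 1163 lower calls in place of 471 and 908, and the 33 genes gave 7 higher and 2 lower.

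The sequence upstream of the start of these 6 genes is shown because they are the ones whose level differed between the doses, and because SREBPs bind such stretches together with NF-Y and Sp1. The stretches are from RefSeq (GRCh38.p14), read 5′ to 3′ on the strand of the gene. Each begins 250 bases before the RefSeq start and stops at the first base of the gene in GENCODE release 29. Capitals mark matches on either strand to the sterol regulatory element core (TCACNCCAC), the NF-Y box (CCAAT), the Sp1 box (GGGCGG) and the E-box (CACGTG), and the reverse forms of the NF-Y and Sp1 boxes read ATTGG and CCGCCC. The stretches lie at chr17:17837003-17837236 (minus strand) for SREBF1, chr22:41832855-41833078 (plus strand) for SREBF2, chr10:100346983-100347123 (plus strand) for SCD, chr7:155297628-155297775 (plus strand) for INSIG1, chr10:1049171-1049369 (minus strand) for IDI1, which has 3 windows in the table, and chr4:165327419-165327622 (plus strand) for MSMO1.
SREBF1: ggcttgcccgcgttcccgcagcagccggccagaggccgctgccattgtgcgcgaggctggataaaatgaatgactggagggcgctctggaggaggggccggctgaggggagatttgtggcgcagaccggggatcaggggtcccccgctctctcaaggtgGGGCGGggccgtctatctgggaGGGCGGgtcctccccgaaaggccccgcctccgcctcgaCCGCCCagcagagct
SREBF2: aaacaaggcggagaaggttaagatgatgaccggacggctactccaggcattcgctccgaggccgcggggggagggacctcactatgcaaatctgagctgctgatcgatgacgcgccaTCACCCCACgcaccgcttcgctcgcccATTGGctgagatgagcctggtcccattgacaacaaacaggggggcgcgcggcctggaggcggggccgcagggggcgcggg
SCD: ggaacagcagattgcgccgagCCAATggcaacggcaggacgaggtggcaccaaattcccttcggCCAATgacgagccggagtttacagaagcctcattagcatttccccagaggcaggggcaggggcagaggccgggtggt
INSIG1: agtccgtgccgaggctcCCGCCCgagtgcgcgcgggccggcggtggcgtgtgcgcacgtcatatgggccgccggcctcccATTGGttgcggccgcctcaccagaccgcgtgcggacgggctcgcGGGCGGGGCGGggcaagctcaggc
IDI1: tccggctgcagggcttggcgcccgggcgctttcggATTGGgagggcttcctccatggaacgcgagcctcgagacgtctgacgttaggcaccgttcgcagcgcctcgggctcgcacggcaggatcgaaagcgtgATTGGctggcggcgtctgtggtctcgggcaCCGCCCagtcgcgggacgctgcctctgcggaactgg
MSMO1: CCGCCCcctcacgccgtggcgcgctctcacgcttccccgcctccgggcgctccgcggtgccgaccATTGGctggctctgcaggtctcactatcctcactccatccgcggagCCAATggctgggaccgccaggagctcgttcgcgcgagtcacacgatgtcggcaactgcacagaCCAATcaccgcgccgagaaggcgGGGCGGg

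Of these 6 stretches, that of SREBF2 holds the sterol regulatory element core, 133 to 125 bases before the start, followed by a reversed NF-Y box 106 to 102 bases before it. The stretch of SREBF1 holds Sp1 boxes and none of the other 3 motifs, the nearest box 31 to 26 bases before the start. For SREBF1 only 1 window was on file, at the outer end of the gene. No start further inside SREBF1 was searched, so motifs elsewhere in the gene are not excluded. SCD has 2 NF-Y boxes, and MSMO1 has 3 in the printed stretch with another 34 to 30 bases before the start. Beyond the printed stretch, SCD has Sp1 boxes 33 to 28 and 11 to 6 bases before the start, and SREBF2 has them 23 to 18 and 10 to 5 bases before it. INSIG1 has further Sp1 boxes 93 to 88 and 80 to 75 bases before the start, also not printed. INSIG1 has 2 Sp1 boxes that overlap by their end bases, 126 to 121 and 121 to 116 bases before the start, and an E-box 55 to 50 bases before it, beyond the printed stretch. The motifs were then counted in the whole window of 250 bases before to 50 bases after the start, which was on file for 28 of the 33 genes (ACAT2, FDFT1, SQLE, ABCG1 and FASN are named only) and for 27305 genes in all. The NF-Y box was in 20 of the 28 genes (71.4%) and in 39.7% of all genes of that table, the Sp1 box in 27 (96.4%) and 48.3%, the E-box in 5 (17.9%) and 8.77%, and the sterol regulatory element core in 1 (SREBF2) and 1.39%. That table was not limited to genes that passed the filter on low counts, as all 33 genes did. Shares over the genes tested were not counted. Only exact matches to the letters given were taken, so variant sites were missed. Among genes that fell at 10 µM the NF-Y box was in 8 of 14 (57.1%), and among genes that rose in 5 of 6 (83.3%). In the same order, the Sp1 box was in 14 of 14 (100%) and 5 of 6 (83.3%). The E-box was in 2 of 14 (14.3%) and 1 of 6 (16.7%), and the sterol regulatory element core in 1 of 14 (7.14%) and 0 of 6. ACAT2, FDFT1, ABCG1 and FASN also fell at 10 µM and had no window. The difference between genes that fell and rose was not tested. These matches are letters in a window and no binding was measured.

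SREBF1 (chr17:17810399-17837002, minus strand in GENCODE release 29), which encodes SREBP-1, the factor best known for fatty acid genes, was at 163, 158 and 164.5 CPM in the DMSO libraries, 93.5, 95.3 and 90.5 CPM at 5 µM and 54.3, 53.3 and 58.4 CPM at 10 µM. The 3 groups did not overlap, with every 10 µM library below every 5 µM library and these below every DMSO library. Its log2 fold change was -0.80 ± 0.068 (SE, adjusted p = 1.08e-04) at 5 µM and -1.55 ± 0.069 (SE, adjusted p = 4.63e-07) at 10 µM, and that of 10 µM against 5 µM was -0.75 ± 0.068 (SE, adjusted p = 2.26e-04). The mean level was 57.5% of that in DMSO at 5 µM and 34.2% at 10 µM. All 3 calls of SREBF1 held in each of 20 alternative fits.

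SREBF2 (chr22:41833079-41907308, plus strand), which encodes SREBP-2, the main factor of the cholesterol genes, was at 148, 149 and 157 CPM in the DMSO libraries, 104, 101 and 100.14 CPM at 5 µM and 65.6, 83.6 and 85.6 CPM at 10 µM. Its groups did not overlap either, and the lowest value was that of 10 µM replicate 1. The log2 fold change was -0.57 ± 0.1 (SE, adjusted p = 0.00575) at 5 µM and -0.95 ± 0.1 (SE, adjusted p = 7.79e-05) at 10 µM, and these calls held in each of the 20 alternative fits. The log2 fold change of 10 µM against 5 µM, -0.38 ± 0.1 (SE, adjusted p = 0.0444), lost its call in 12 of them, among them each fit without a DMSO or a 5 µM library.

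SCAP, the escort of both SREBPs, was at 109.99 ± 2.07 CPM (SD, n = 3) in DMSO and 94.6 ± 4.15 CPM at 10 µM. Its call at 10 µM, at a log2 fold change of -0.22 ± 0.066 (SE, adjusted p = 0.0288), was lost in 9 of the 20 alternative fits, and the value was 0.02 once the trend in length and GC content was removed. At 5 µM the log2 fold change was -0.12 (adjusted p = 0.292).

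INSIG1 and INSIG2 encode the proteins that hold SCAP in the endoplasmic reticulum, and INSIG1 is itself a known SREBP target. INSIG1 was at 25.8, 27.5 and 26.9 CPM in the DMSO libraries, 13.9, 13.2 and 13.8 CPM at 5 µM and 29.9, 20.1 and 19.7 CPM at 10 µM. The 5 µM libraries lay below all others, while at 10 µM replicate 1 lay above every DMSO library and the other 2 lay below. INSIG1 fell at 5 µM, at a log2 fold change of -0.97 ± 0.15 (SE, adjusted p = 0.00311) and had -0.20 (adjusted p = 0.328) at 10 µM, and the value for 10 µM against 5 µM was 0.77 ± 0.15 (SE, adjusted p = 0.0132). Without 10 µM replicate 1, INSIG1 was called lower than DMSO at 10 µM as well, with a log2 fold change of -0.43, and 10 µM still exceeded 5 µM, by 0.55 on the log2 scale. Without any 1 of the 5 µM libraries, the call between the doses was lost. INSIG2 was at 26.7, 27.96 and 26.7 CPM in DMSO and at 18.9, 18.4 and 18.99 CPM at 5 µM, where its log2 fold change of -0.53 ± 0.15 (SE, adjusted p = 0.0512) missed the threshold. At 10 µM it was at 24.3, 15.03 and 17.7 CPM, replicate 1 being the highest, and it fell with a log2 fold change of -0.51 ± 0.15 (SE, adjusted p = 0.024), a call lost in 6 of 20 alternative fits.

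**Figure D3:**
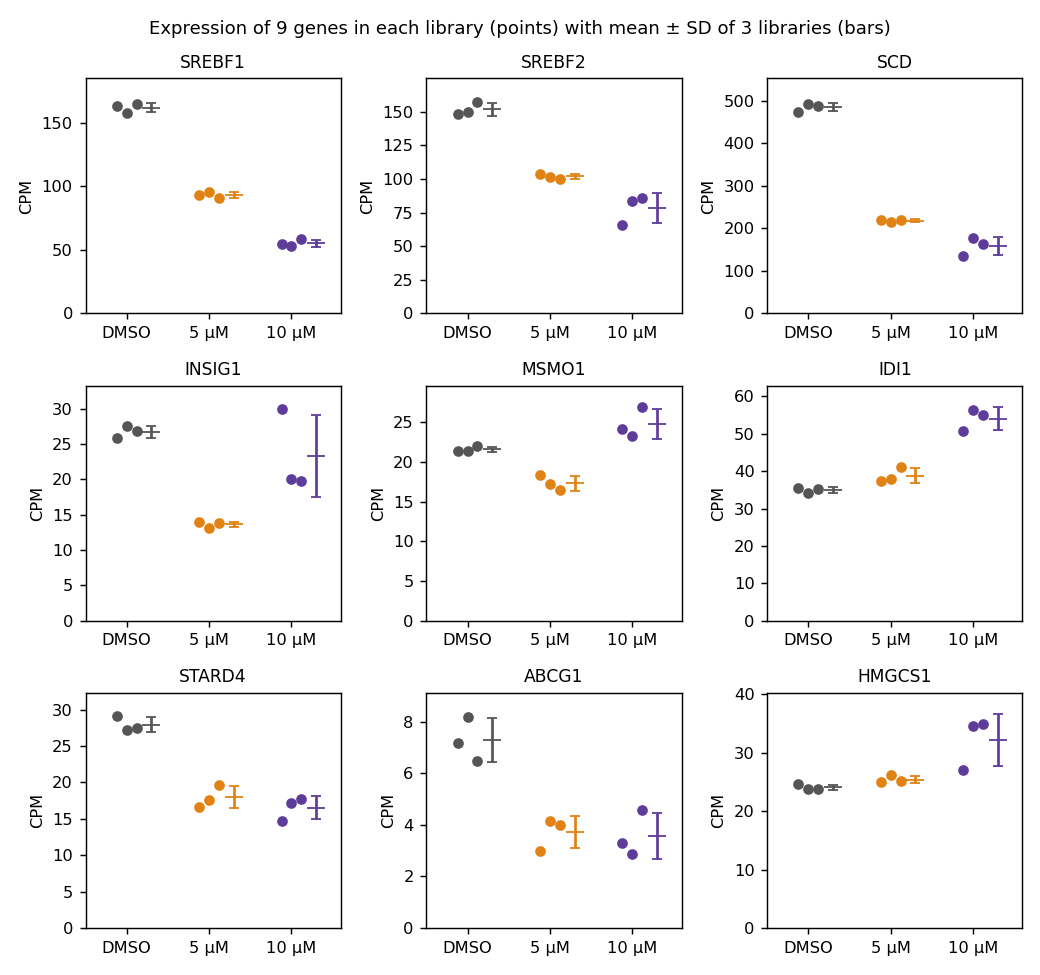
CPM of 9 genes in each library (points) with the mean ± SD of the 3 libraries of a group (bars), for DMSO, 5 µM and 10 µM TP-472; every axis starts at 0. SREBF1, SREBF2 and SCD step down at each dose, INSIG1 is lowest at 5 µM and spreads from 19.7 to 29.9 CPM at 10 µM, and MSMO1 is below DMSO at 5 µM and above it at 10 µM.

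In the mevalonate pathway, the first reactions were measured through ACAT2, the cytosolic thiolase that joins acetyl-CoA units, and HMGCS1, the synthase of HMG-CoA. ACAT2 had means of 28.7 ± 1.31 CPM with DMSO, 23.6 ± 1.62 CPM with 5 µM and 23.6 ± 0.196 CPM with 10 µM TP-472 (SD, n = 3), and it fell at 10 µM, at a log2 fold change of -0.28 ± 0.081 (SE, adjusted p = 0.0236), with -0.28 (adjusted p = 0.0571) at 5 µM. The call was lost without DMSO replicate 2 and without DMSO replicate 3. Of its exonic length, 52.3% overlaps genes of the opposite strand, among them TCP1, which was not called at either dose (log2 fold change -0.07 and 0.00065). HMGCS1 was at 24.6, 23.8 and 23.9 CPM in the DMSO libraries, 24.9, 26.1 and 25.1 CPM at 5 µM and 27.1, 34.5 and 34.97 CPM at 10 µM. All 3 values at 10 µM exceeded those at 5 µM, which in turn exceeded those in DMSO. It rose at 10 µM, at a log2 fold change of 0.42 ± 0.1 (SE, adjusted p = 0.0111), a call lost without DMSO replicate 2, and had 0.08 (adjusted p = 0.736) at 5 µM.

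The next enzymes phosphorylate and decarboxylate mevalonate. PMVK, the phosphomevalonate kinase, was at 34.1, 32.2 and 32.6 CPM in the DMSO libraries, 38.1, 45.9 and 42.3 CPM at 5 µM and 68.4, 46.4 and 50.7 CPM at 10 µM. Its groups did not overlap, and 10 µM replicate 1 was the highest of all. It rose at 10 µM, at a log2 fold change of 0.74 ± 0.14 (SE, adjusted p = 0.00253), the largest rise among the 33 genes in this fit, and of 0.56 without that library. At 10 µM the log2 fold change was 0.28 (adjusted p = 0.195) for MVK, the mevalonate kinase, and 0.38 (adjusted p = 0.126) for MVD, the mevalonate diphosphate decarboxylase. The 5 µM values were -0.16 (adjusted p = 0.592) and -0.07 (adjusted p = 0.868). For both genes, 10 µM replicate 1 was again the highest library, at 19.1 CPM for MVK and 32.5 CPM for MVD, and without it the log2 fold changes of MVK and MVD at 10 µM were 0.14 and 0.12. MVK and MVD were called at 10 µM only once the trend in length and GC content was removed, each at 0.44.

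IDI1 (chr10:1039152-1049170, minus strand), the isomerase that makes the reactive isoprenoid unit, was at 35.5, 34.1 and 35.3 CPM in the DMSO libraries, 37.5, 37.9 and 41.02 CPM at 5 µM and 50.7, 56.5 and 55.04 CPM at 10 µM. The groups did not overlap, and the step from 5 to 10 µM was larger than that from DMSO to 5 µM. IDI1 rose at 10 µM, at a log2 fold change of 0.63 ± 0.077 (SE, adjusted p = 2.09e-04) and had 0.15 (adjusted p = 0.274) at 5 µM. The log2 fold change of 10 µM against 5 µM was 0.48 ± 0.076 (SE, adjusted p = 0.00499), a call that among the 20 alternative fits was lost only when the DMSO libraries were left out. Of its exonic length, 14.8% overlaps IDI2-AS1 on the opposite strand. FDPS, which makes farnesyl diphosphate, was at 107, 105 and 103 CPM in the DMSO libraries, 89.3, 83.8 and 88.1 CPM at 5 µM and 106, 78.9 and 76.1 CPM at 10 µM. In FDPS, 10 µM replicate 1 lay within the DMSO range and the other 2 well below it, and the log2 fold change at 10 µM was -0.27 (adjusted p = 0.096) with that library and -0.44 without it, then called. At 5 µM the log2 fold change was -0.27 (adjusted p = 0.185).

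Squalene synthase, FDFT1, had means of 111 ± 0.568 CPM with DMSO, 86.7 ± 2.51 CPM with 5 µM and 93.7 ± 4.77 CPM with 10 µM TP-472 (SD, n = 3), and its ranges at either dose lay below that in DMSO. It fell with log2 fold changes of -0.36 ± 0.068 (SE, adjusted p = 0.00893) at 5 µM and -0.25 ± 0.068 (SE, adjusted p = 0.0184) at 10 µM. These calls were lost in 3 and 4 of the 20 alternative fits. SQLE, the squalene epoxidase and a slow step of the pathway, had a log2 fold change of -0.10 (adjusted p = 0.629) at 5 µM and 0.10 (adjusted p = 0.472) at 10 µM, with 39.9 to 42.6 CPM in DMSO and 39.6 to 47.3 CPM at 10 µM.

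Lanosterol synthase, LSS, and the lanosterol demethylase CYP51A1 fell at both doses. Here and in what follows, a pair of log2 fold changes is given for 5 µM first and 10 µM second. LSS was at 51.96, 47.7 and 51.8 CPM in the DMSO libraries, 43.5, 39.6 and 36.8 CPM at 5 µM and 38.4, 38.6 and 39.6 CPM at 10 µM, with no overlap between DMSO and either dose, and fell with log2 fold changes of -0.34 ± 0.083 (SE, adjusted p = 0.0306) and -0.38 ± 0.083 (SE, adjusted p = 0.00613). Its call at 10 µM was lost once the trend in length and GC content was removed, at -0.17. CYP51A1 was at 56.02, 55.99 and 54.9 CPM in the DMSO libraries, 45.4, 38.8 and 40.2 CPM at 5 µM and 34.5, 37.8 and 45.7 CPM at 10 µM, again without overlap, and fell with log2 fold changes of -0.43 ± 0.11 (SE, adjusted p = 0.036) and -0.50 ± 0.11 (SE, adjusted p = 0.00588). In the annotation, 79.4% of its exonic length is shared with AC000120.2 and AC000120.3 on the same strand, so its reads could be divided among these entries. The calls of LSS and CYP51A1 at 5 µM were lost in 6 and 7 of 20 alternative fits, including those without any 1 DMSO library.

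Of the demethylation steps that follow, MSMO1 (chr4:165327623-165343160, plus strand), the methylsterol monooxygenase, was at 21.4, 21.4 and 21.96 CPM in the DMSO libraries, 18.3, 17.2 and 16.5 CPM at 5 µM and 24.1, 23.2 and 26.9 CPM at 10 µM. The 5 µM libraries lay below the DMSO range and the 10 µM libraries above it. It fell at 5 µM, at a log2 fold change of -0.32 ± 0.087 (SE, adjusted p = 0.0456), a call lost in 9 of 20 alternative fits, and had 0.20 (adjusted p = 0.105) at 10 µM. The log2 fold change of 10 µM against 5 µM was 0.52 ± 0.087 (SE, adjusted p = 0.00668), a call lost, of the 20 alternative fits, only in that without the DMSO libraries. NSDHL, the dehydrogenase that acts next, was at 21.8, 22.1 and 25.3 CPM in the DMSO libraries, 24.996, 26.1 and 24.6 CPM at 5 µM and 37.3, 29.99 and 26.9 CPM at 10 µM. Its 10 µM libraries lay above the DMSO range, with replicate 1 the highest, and it rose with a log2 fold change of 0.44 ± 0.12 (SE, adjusted p = 0.0186), or of 0.30 without that library. Its call at 10 µM was lost in 4 of 20 alternative fits, among them those without DMSO replicate 1 and without DMSO replicate 2. At 5 µM the log2 fold change was 0.13 (adjusted p = 0.603).

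HSD17B7, the ketosteroid reductase of the same complex, was at 12.4, 11.9 and 10.3 CPM in the DMSO libraries, 11.96, 13.02 and 14.5 CPM at 5 µM and 15.6, 16.4 and 14.8 CPM at 10 µM. It rose at 10 µM, at a log2 fold change of 0.44 ± 0.11 (SE, adjusted p = 0.0129) with no overlap with DMSO, and had 0.19 (adjusted p = 0.334) at 5 µM. Without DMSO replicate 3 it was not called. A near-identical copy, HSD17B7P2, could take or give reads in the counting, so its value is uncertain. HSD17B7P2 had means of 0.303 ± 0.196 CPM with DMSO, 0.797 ± 0.121 CPM with 5 µM and 1.66 ± 0.488 CPM with 10 µM TP-472 (SD, n = 3) and rose at 10 µM, at a log2 fold change of 2.46 ± 0.5 (SE, adjusted p = 0.00433).

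The last steps gave mixed values. SC5D, the lathosterol oxidase, was at 24.7, 20.5 and 24.9 CPM in the DMSO libraries, 29.4, 22.3 and 25.7 CPM at 5 µM and 27.9, 32.8 and 36.9 CPM at 10 µM and rose at 10 µM, at a log2 fold change of 0.48 ± 0.14 (SE, adjusted p = 0.0227), a call lost in 4 of 20 alternative fits, with 0.14 (adjusted p = 0.604) at 5 µM. DHCR7, the reductase that completes cholesterol, was at 57.1, 51.7 and 55.1 CPM in the DMSO libraries, 36.6, 41.4 and 41.7 CPM at 5 µM and 48.9, 37.9 and 37.3 CPM at 10 µM. The DMSO libraries of DHCR7 lay above all 6 others, and it fell with log2 fold changes of -0.45 ± 0.11 (SE, adjusted p = 0.0328) at 5 µM and -0.40 ± 0.11 (SE, adjusted p = 0.0208) at 10 µM. These calls were lost in 7 and 5 of the 20 alternative fits. EBP, the sterol isomerase, had log2 fold changes of -0.17 (adjusted p = 0.496) at 5 µM and 0.16 (adjusted p = 0.39) at 10 µM, and its highest library was 10 µM replicate 1 at 45.6 CPM. TM7SF2, a sterol reductase at 3.53 to 5.597 CPM, had log2 fold changes of -0.06 (adjusted p = 0.889) and -0.32 (adjusted p = 0.227).

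Among the genes of sterol transport and efflux, STARD4, which carries cholesterol between membranes, was at 29.2, 27.2 and 27.5 CPM in the DMSO libraries, 16.7, 17.6 and 19.6 CPM at 5 µM and 14.8, 17.2 and 17.7 CPM at 10 µM. Every TP-472 library lay below every DMSO library, and both doses overlapped each other. STARD4 fell with log2 fold changes of -0.64 ± 0.1 (SE, adjusted p = 0.00351) and -0.76 ± 0.1 (SE, adjusted p = 3.62e-04), calls that held in each of the 20 alternative fits. Its antisense neighbour STARD4-AS1 overlaps 2.18% of its exonic length and had means of 9.98 ± 1.14 CPM with DMSO, 6.19 ± 0.743 CPM with 5 µM and 3.18 ± 1.74 CPM with 10 µM TP-472 (SD, n = 3), with a log2 fold change of -1.65 ± 0.35 (SE, adjusted p = 0.00512) at 10 µM.

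ABCG1 and ABCA1 are efflux pumps and known LXR targets, and of the pair only ABCG1 was called at either dose. ABCG1 was at 7.18, 8.17 and 6.48 CPM in the DMSO libraries, 3.001, 4.16 and 4.003 CPM at 5 µM and 3.28, 2.86 and 4.58 CPM at 10 µM. The TP-472 libraries all lay below the DMSO range, at about the same level in both doses. It fell with log2 fold changes of -0.97 ± 0.21 (SE, adjusted p = 0.0189) and -1.02 ± 0.21 (SE, adjusted p = 0.00466), the first call being lost in 5 of 20 alternative fits and the second in 0. ABCA1 was at 18.1, 20.7 and 17.99 CPM in the DMSO libraries, 20.3, 18.8 and 21.6 CPM at 5 µM and 13.1, 22.6 and 21.2 CPM at 10 µM, with overlapping groups, and its log2 fold changes were 0.10 (adjusted p = 0.814) and 0.0043 (adjusted p = 0.989). In ABCA1, 10 µM replicate 1 was the lowest library, and without it the value at 10 µM was 0.21, not called.

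The fatty acid enzymes include the most abundant of the 33 genes. On CPM per kilobase of exonic length in DMSO, the highest were SCD at 90.2, FASN at 69.8 and ACLY at 68.4, and the lowest were ABCG1 at 1.19, TM7SF2 at 1.57 and ABCA1 at 1.67. ACLY, which splits citrate into acetyl-CoA, was at 369, 351.5 and 350.04 CPM in the DMSO libraries, 310.21, 326 and 320.18 CPM at 5 µM and 227, 285 and 286 CPM at 10 µM. The 3 groups of ACLY did not overlap, and it fell at 10 µM, at a log2 fold change of -0.42 ± 0.091 (SE, adjusted p = 0.00549) and had -0.16 (adjusted p = 0.322) at 5 µM.

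ACACA, the acetyl-CoA carboxylase that makes malonyl-CoA, was at 129.89, 131 and 122 CPM in the DMSO libraries, 94.5, 88.5 and 88.3 CPM at 5 µM and 45.5, 83.96 and 90.8 CPM at 10 µM. The 5 µM libraries were below DMSO throughout, and 10 µM replicate 1 was far below the other 2 libraries of its group. ACACA fell at 10 µM, at a log2 fold change of -0.80 ± 0.2 (SE, adjusted p = 0.0131), and of -0.55 without that library, still called. At 5 µM the log2 fold change was -0.50 (adjusted p = 0.161) in the fit of all libraries and was called without 10 µM replicate 1. FASN, the fatty acid synthase, was at 646, 655 and 660.4 CPM in the DMSO libraries, 485, 529 and 484 CPM at 5 µM and 331, 468 and 461 CPM at 10 µM. The groups did not overlap, and again 10 µM replicate 1 was the lowest. FASN fell at 10 µM, at a log2 fold change of -0.64 ± 0.12 (SE, adjusted p = 0.00263), with -0.50 without that library and -0.25 with the trend in length and GC content removed, all called. At 5 µM the log2 fold change was -0.39 (adjusted p = 0.069).

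SCD (chr10:100347124-100364834, plus strand), the stearoyl-CoA desaturase that makes monounsaturated fatty acids, had the lowest log2 fold change of the 33 genes at either dose in the fit of all libraries. At 10 µM SREBF1 was close to it, at -1.55 ± 0.069 (SE), and the difference between these genes was not tested. SCD was at 473, 491 and 487 CPM in the DMSO libraries, 219.95, 214 and 219 CPM at 5 µM and 135, 177 and 164 CPM at 10 µM, with no overlap between any of the 3 groups. The log2 fold change was -1.15 ± 0.095 (SE, adjusted p = 8.80e-05) at 5 µM and -1.61 ± 0.1 (SE, adjusted p = 2.01e-06) at 10 µM, calls that held in each of the 20 alternative fits, and that of 10 µM against 5 µM was -0.46 ± 0.094 (SE, adjusted p = 0.0171). That difference was lost when any 1 of the 5 µM libraries, or the whole DMSO group, was left out. SCD was at 44.97% of its DMSO mean at 5 µM and 32.8% at 10 µM, and it lay beyond the 5th percentile of all genes tested at both doses (-0.75 and -1.17).

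The elongase ELOVL6 and the polyunsaturated fatty acid desaturases FADS1 and FADS2 fell at 10 µM by smaller amounts. ELOVL6 had means of 37.1 ± 1.07 CPM with DMSO, 35.4 ± 1.495 CPM with 5 µM and 28.1 ± 3.85 CPM with 10 µM TP-472 (SD, n = 3), and its log2 fold change was -0.07 (adjusted p = 0.761) at 5 µM and -0.40 ± 0.1 (SE, adjusted p = 0.0133) at 10 µM, a call lost without DMSO replicate 3. FADS1 was at 231, 236 and 242 CPM in the DMSO libraries, 206, 200.26 and 202 CPM at 5 µM and 173, 187 and 179.95 CPM at 10 µM. Its groups did not overlap, and it fell at 10 µM, at a log2 fold change of -0.39 ± 0.063 (SE, adjusted p = 0.00114), with -0.22 (adjusted p = 0.0546) at 5 µM. FADS2 had means of 28.3 ± 0.756 CPM with DMSO, 22.9 ± 0.51 CPM with 5 µM and 21.1 ± 3.01 CPM with 10 µM TP-472 (SD, n = 3) and fell at 10 µM, at a log2 fold change of -0.42 ± 0.11 (SE, adjusted p = 0.0123), with -0.30 (adjusted p = 0.102) at 5 µM and -0.20 at 10 µM, not called, once the trend in length and GC content was removed. FADS1 and FADS2 overlap each other on opposite strands over 4.79% and 4.44% of their exonic length.

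A further 4 lists place these genes among the rest of the pathway. Of 9 genes of SREBP processing and sterol-regulated degradation, 2 rose (22.2%) and 1 fell (11.1%) at 5 µM, where 4.4% of all genes tested rose and 5.81% fell. At 10 µM 2 rose (22.2%) and 5 fell (55.6%), against 16.4% and 18% of all genes tested. SPRING1, listed in the table as C12orf49 and needed for SREBP cleavage, rose with log2 fold changes of 0.31 ± 0.085 (SE, adjusted p = 0.0475) and 0.32 ± 0.085 (SE, adjusted p = 0.0159). The proteases MBTPS1 and MBTPS2, which cut the SREBPs, were among the genes that fell at 10 µM, with log2 fold changes of -0.34 (adjusted p = 0.00529) and -0.43 (adjusted p = 0.0342).

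Of 11 further sterol and isoprenoid enzymes, 0 rose and 1 fell (9.09%) at 5 µM, and 3 rose (27.3%) and 2 fell (18.2%) at 10 µM, the last of these shares being about that of all genes tested (18%). LBR, a nuclear envelope protein with the same sterol reductase activity as TM7SF2, was at 89.6, 88.6 and 91.04 CPM in the DMSO libraries, 65.3, 68.4 and 68.6 CPM at 5 µM and 45.8, 56.3 and 59.7 CPM at 10 µM. Every TP-472 library of LBR lay below the DMSO range, and it fell with log2 fold changes of -0.41 ± 0.1 (SE, adjusted p = 0.0246) and -0.73 ± 0.1 (SE, adjusted p = 3.40e-04). The 3 that rose at 10 µM were GGPS1, PDSS2 and DHDDS, which use farnesyl diphosphate or its precursors for longer isoprenoids, with log2 fold changes of 0.39 (adjusted p = 0.00881), 0.39 (adjusted p = 0.0157) and 0.59 (adjusted p = 8.59e-04).

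Of 12 genes of LXR signalling, sterol trafficking and storage, 0 were called at 5 µM, and 0 rose and 5 fell (41.7%) at 10 µM, beside 16.4% and 18% of all genes tested. With log2 fold changes at 10 µM, the 5 were NR1H3, which encodes LXR alpha, at -0.63 (adjusted p = 0.0147), the LXR targets MYLIP at -0.56 (adjusted p = 0.0208) and LPCAT3 at -0.43 (adjusted p = 0.00494), the lysosomal sterol carrier NPC2 at -0.72 (adjusted p = 0.00673), and the lipoprotein receptor SCARB1 at -0.49 (adjusted p = 0.00668). Their values at 5 µM were also negative, between -0.57 and -0.31, and none was called there.

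Of 27 further fatty acid genes, 1 rose and 1 fell (3.7% each) at 5 µM, below the 4.4% and 5.81% of all genes tested. At 10 µM 3 rose (11.1%) and 8 fell (29.6%), beside 16.4% and 18%. ELOVL5, an elongase of polyunsaturated fatty acids, fell from 104 ± 3.45 CPM (SD, n = 3) in DMSO to 73.6 ± 9.53 CPM at 10 µM, with log2 fold changes of -0.38 ± 0.1 (SE, adjusted p = 0.0321) and -0.49 ± 0.1 (SE, adjusted p = 0.00322). ACSL1, which activates fatty acids to acyl-CoA, was at 25.9, 26.8 and 28.7 CPM in the DMSO libraries, 40.4, 37.6 and 33.7 CPM at 5 µM and 40.2, 46.1 and 43.7 CPM at 10 µM and rose with log2 fold changes of 0.46 ± 0.093 (SE, adjusted p = 0.0133) and 0.67 ± 0.093 (SE, adjusted p = 4.62e-04). Its relatives ACSL3, ACSL4 and ACSL5 fell at 10 µM, with log2 fold changes of -0.49 (adjusted p = 0.00937), -0.73 (adjusted p = 0.00347) and -1.14 (adjusted p = 0.0318). ACSS2, which makes acetyl-CoA from acetate and is a known SREBP target, fell at 10 µM, at a log2 fold change of -0.75 (adjusted p = 0.00469). The median log2 fold changes at 10 µM of these 4 lists, in the order given, were -0.29, -0.05, -0.14 and -0.15, beside 0.011 over all genes tested.

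**Figure D4:**
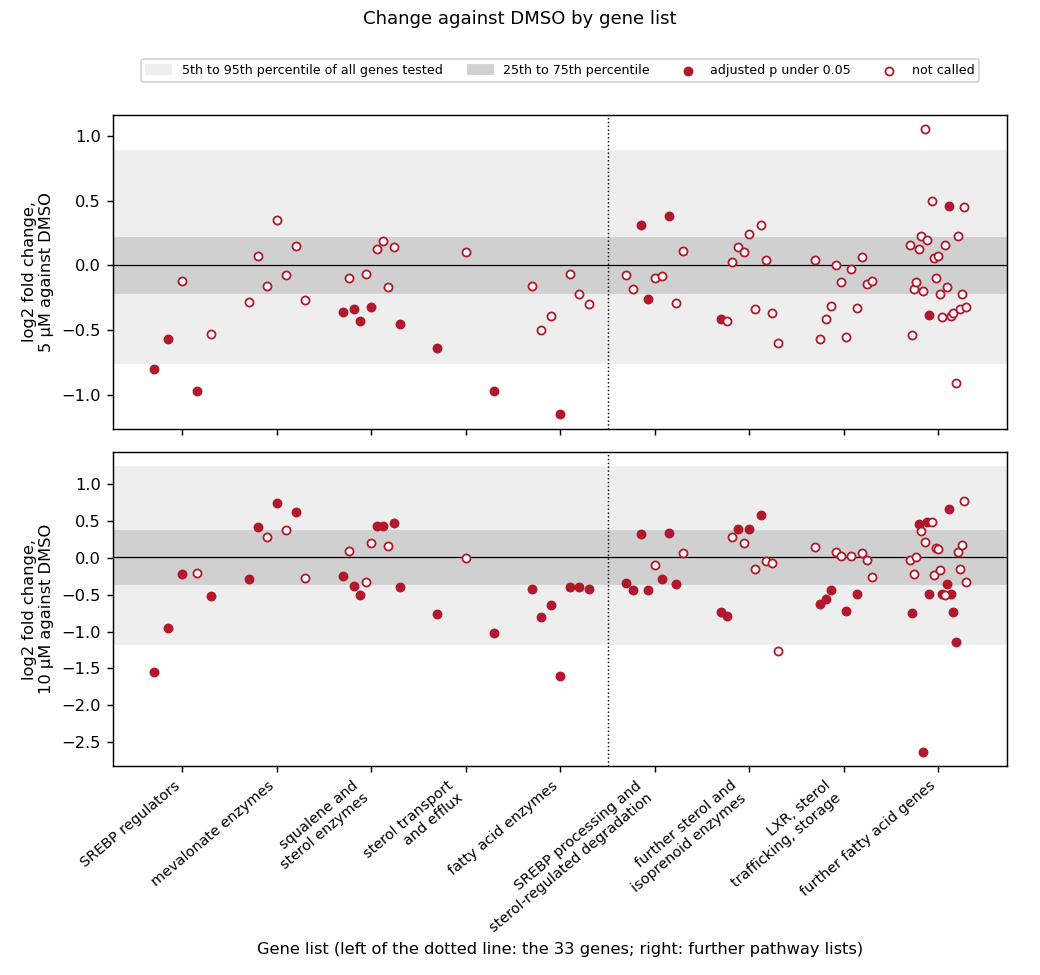
Log2 fold change against DMSO at 5 µM (upper) and 10 µM (lower) for each gene of the 5 groups of the 33 genes (left of the dotted line) and of the 4 further lists (right); filled points were called at an adjusted p under 0.05, and the grey bands span the 25th to 75th and 5th to 95th percentiles of all 16417 genes tested. At 10 µM, SREBF1 and SCD of the 33 genes lie below the wider band, whose lower edge is at -1.17. From the further lists, ELOVL2 at -2.63 (called, with a DMSO mean of 0.595 CPM) and FNTB at -1.27 (not called) lie below it too. All 7 fatty acid enzymes of the 33 genes lie below 0.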

How the data were processed

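RNA from A375 cells (DMSO, 5 µM and 10 µM TP-472, 24 h) was sequenced in 9 libraries, 3 to a group. Expected counts by gene symbol, without scaling for library size, were deposited by the authors in 1 table. The submitters' processing notes name Bowtie2 2.1.0, RSEM 1.2.15 and hg38, without their order of use. Per the study's methods, dUTP marking made the libraries strand-specific. On the annotation, the filters and any use of strand in counting, nothing was given in the sources used here. In each library 10.6% to 13.8% of values held fractions, and all were rounded to whole numbers before testing.

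Counts were tested with edgeR 4.0.16 (R 4.3.3): TMM factors (0.957 to 1.029), the default filterByExpr filter, and the quasi-likelihood F test on 1 fit of the 3 groups, with Benjamini-Hochberg adjustment over 16417 genes. Standard errors are the absolute log2 fold change over the square root of F. CPM is relative to TMM-scaled library sizes. P-values measure the spread between these libraries. The scripts were tested on simulated data. The members and lists were chosen with earlier results of these data known. All 33 genes are named, and from the 4 further lists those called at both doses in the same direction, of which 2 are not reported here, while MBTPS1, MBTPS2, GGPS1, PDSS2, DHDDS, ACSS2, the called LXR genes and the other ACSL genes were chosen after their values were seen. Coordinates and overlaps are from GENCODE release 29 (GRCh38), and upstream sequence is from RefSeq. Both length and GC content were on file for 93.3% of tested genes. Alternatives were other scaling factors, filters and thresholds, no ribosomal RNA genes, DESeq2 1.42.0, limma-voom (limma 3.58.1), a replicate block, a length and GC correction, fits of only the groups compared, and each library left out.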

Additional observations from a re-analysis of the deposited data

Results flagged for a closer look

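The change from 5 µM to 10 µM was larger than the spread between libraries for 6 of the 33 genes by the quasi-likelihood test of edgeR, Benjamini-Hochberg adjusted, in the fit of all libraries. Of the 33 genes, 3 were higher and 3 lower (9.09% each), beside 2.87% and 5.53% of all genes tested. The log2 fold change of 10 µM against 5 µM was -0.75 for SREBF1, -0.38 for SREBF2 and -0.46 for SCD, which were lower at 10 µM in 3 of 3 libraries. It was 0.77 for INSIG1, 0.48 for IDI1 and 0.52 for MSMO1, which were higher at 10 µM in 3 of 3 libraries. Such a split in 3 of 3 libraries does not set these genes apart. Others not called between the doses had it too, among them HMGCS1 and PMVK (higher) and FASN and FADS1 (lower). INSIG1 and MSMO1 had fallen against DMSO at 5 µM and were not called against DMSO at 10 µM, whereas IDI1 was called against DMSO at 10 µM only. Among the 20 alternative fits, the call between the doses held in all for SREBF1. It was lost in 12 for SREBF2, in 4 each for INSIG1 and SCD, and in 1 each for IDI1 and MSMO1, that of only the groups compared.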

How the results depend on the processing

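Of the 33 genes, 0 were called higher and 11 lower at 5 µM, 6 higher and 18 lower at 10 µM, and 3 higher and 3 lower at 10 µM against 5 µM. These shares were 0% and 33.3%, 18.2% and 54.5%, and 9.09% and 9.09%. Over all genes tested they were 4.4% and 5.81%, 16.4% and 18%, and 2.87% and 5.53%. Over all alternatives, 1960 of the values for single genes kept their direction and side of the threshold, 143 lost a call, 73 gained one and 2 reversed. Both reversals were SCAP at 10 µM against DMSO, 0.02 with the trend in length and GC content removed and 0.02 with the replicate block and that removal together. The replicate block gave 7 lower calls at 5 µM, beside 738 of 16417 over all genes tested. Same-numbered libraries did not deviate together (correlations -0.049 to 0.032). The labels do not say whether the numbers pair libraries, and these values cannot settle it, since paired handling need not leave a shared deviation. Removing the trend gave 1 higher call at 5 µM and 7 higher calls between the doses, and the replicate block with that removal gave 1 and 5. Over all 16417 genes tested, these counts were 1375 and 962, and with the block 1220 and 781. DESeq2 gave 5 higher calls between the doses, beside 1080 of 16417 over all genes tested. Fitting only the groups compared gave 2 higher and 21 lower calls at 5 µM, and 0 higher and 1 lower between the doses. Over all genes tested, these fits gave 3051 higher and 3280 lower of 15849 at 5 µM. Between the doses they gave 114 higher and 221 lower of 16005. A fold change of at least 1.5 left 5 lower calls at 5 µM, 2 higher and 7 lower at 10 µM, and 1 higher and 1 lower between the doses. Of all 16417 genes tested, that left 447 lower at 5 µM, 1407 higher and 1730 lower at 10 µM, and 233 and 425 between the doses. An adjusted p under 0.01 left 6 lower calls at 5 µM, 2 higher and 10 lower at 10 µM, and 2 higher and 1 lower between the doses. Of all 16417 genes tested, that left 420 lower at 5 µM, 1466 higher and 1874 lower at 10 µM, and 125 and 327 between the doses. Leaving out 1 library at a time gave 0 to 1 higher and 5 to 20 lower calls at 5 µM, 3 to 7 higher and 12 to 21 lower at 10 µM, and 2 to 6 higher and 1 to 7 lower between the doses. Over all genes tested, the same fits gave 263 to 2770 higher and 410 to 2951 lower at 5 µM. They gave 1645 to 3854 higher and 2127 to 4316 lower at 10 µM, and 146 to 1474 higher and 388 to 2576 lower between the doses. The highest counts of lower calls at 5 µM and in both directions between the doses came without 10 µM replicate 1. Stricter thresholds lower a count by construction, and for the other shifts the cause was not tested.

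All 33 genes had at least 137 counts in every library, and 3 libraries a group estimate the spread between libraries coarsely. A gene that missed the threshold is not shown to be unchanged.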
